A study of Mus musculus with 2 samples.

Results

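Double-stranded RNA marks viral replication and can also arise from a cell's own transcripts, and mammalian cells carry several proteins that recognise it. The 8 genes described here encode such sensors and their effectors: the cytosolic helicases MDA5 (Ifih1), LGP2 (Dhx58) and DDX60 (Ddx60), the mitochondrial adaptor MAVS (Mavs), the kinase PKR (Eif2ak2), the nucleic acid sensor ZBP1 (Zbp1), the adenosine deaminase ADAR1 (Adar) and the endosomal receptor TLR3 (Tlr3). They were taken by symbol from the 32589 genes of the deposited matrices, and each of the 8 symbols named exactly 1 gene in both. Each group was 1 library of live cells sorted for CD45, the leukocyte surface marker, from mouse tumours of the colon carcinoma line MC38 at 19 days after inoculation. Tumours of the BiDT library had received BiDT and those of the Ctrl library were controls. The labels do not spell out BiDT, while the title of the series names an anti-TIM3 antibody fused to an interferon. They give neither the strain, age and sex of the hosts nor a dose or time of treatment. Cells of 5 biological replicates were pooled in each library before sequencing, and both libraries carry the same batch label. No difference below therefore has a replicate check or a test, and all intervals are 95% intervals that cover counting error only.

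MDA5 binds long double-stranded RNA and signals through MAVS, which recruits kinases that activate the transcription factors IRF3 and IRF7 and thereby type I interferon genes. LGP2 binds RNA without signalling itself and modulates MDA5 and the related helicase RIG-I, and DDX60 has been described as a cofactor of RIG-I in human cells. PKR halts translation by phosphorylating eIF2alpha, ZBP1 engages RIPK3 and can start necroptosis through MLKL, and ADAR1 edits adenosines in double-stranded RNA, which keeps a cell's own RNA from activating MDA5, PKR and ZBP1. TLR3 samples RNA taken up into endosomes and signals through TRIF; among mouse leukocytes it is known for high expression in type 1 conventional dendritic cells (cDC1). Most of these genes are themselves induced by interferon, whereas Mavs is usually regarded as constitutive.

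Interferon-stimulated response elements are bound by the transcription factor complex ISGF3 and by IRF factors. Their core, a pair of GAAA separated by any 2 bases, was searched on both strands in the 250 bases before and 50 bases after each annotated gene start, in the RefSeq promoters of build GRCm38.p6, which is not the build of the counts. Of the 8 genes 6 had a promoter in that table. The core occurred in 3.44% of 32851 promoters, and among the 8 genes in those of Ddx60, Ifih1 and Eif2ak2. A looser pair of IRF half-sites, AA and GAAA separated by any 2 bases, overlaps the core and occurred in 23.9% of promoters and also in those of Tlr3 and of Adar, where only the third of 3 annotated starts had it. The matches below are given because the ratios described later differ most between Ddx60 and Mavs; a match is a stretch of letters and not a measured binding site. Capitals mark the core, or the looser pair where no core was present. Shown are the 250 bases before the start of Ddx60 (chr8:61927837-61928086, plus strand), with cores that begin 53 and 19 bases before it, and those before the start of Mavs (chr2:131233813-131234062, plus strand), without a match. Stretches of 30 bases are shown round the matches of Ifih1 (chr2:62646206-62646235, minus strand; 32 bases after the start), Eif2ak2 (chr17:78882535-78882564, minus strand; 18 bases after), Adar (chr3:89730736-89730765, plus strand; 29 bases after the third start) and Tlr3 (chr8:45410421-45410450, minus strand; 59 bases before).
Ddx60: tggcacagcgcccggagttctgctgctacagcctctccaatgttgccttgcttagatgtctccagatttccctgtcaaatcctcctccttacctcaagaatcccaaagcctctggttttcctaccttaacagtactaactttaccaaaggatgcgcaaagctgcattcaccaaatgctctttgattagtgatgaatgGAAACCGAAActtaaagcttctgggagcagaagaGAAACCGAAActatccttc
Ifih1: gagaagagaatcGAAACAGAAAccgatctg
Eif2ak2: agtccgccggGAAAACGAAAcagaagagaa
Adar: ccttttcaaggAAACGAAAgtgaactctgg
Tlr3: aagtgaatggcTTTCACTTtgtttagacac
Mavs: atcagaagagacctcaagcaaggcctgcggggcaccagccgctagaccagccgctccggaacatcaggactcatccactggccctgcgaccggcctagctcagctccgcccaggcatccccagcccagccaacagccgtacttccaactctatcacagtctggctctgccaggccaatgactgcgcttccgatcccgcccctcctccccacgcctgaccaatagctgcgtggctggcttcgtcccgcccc

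The BiDT library held 34996 barcodes and 130313537 UMIs and the Ctrl library 34310 barcodes and 211047063 UMIs, and filters left 31615 BiDT and 30549 Ctrl cells with medians of 2616 UMIs in BiDT and 4172 UMIs in Ctrl. The median share of mitochondrial UMIs was 1.01% in BiDT and 1.70% in Ctrl, and the nuclear RNA Malat1 took 0.824% of all UMIs in BiDT and 0.412% in Ctrl. A total of 713 barcodes occurred in both libraries (2.04% of BiDT and 2.08% of Ctrl barcodes). Cells were assigned by marker genes to 12 gates that held 63 to 7036 BiDT cells and 134 to 11540 Ctrl cells, and 37.9% of BiDT and 28.9% of Ctrl cells met no gate. Among the 10 leading genes of a gate, markers of its own class numbered 6 in macrophages, neutrophils and CD8 T cells. They numbered only 2 in CD4 T cells and 1 in NK cells. In cDC2, CD4 T cells and regulatory T cells 1 of the 10 was a marker of another class. Sets of markers that define one lineage were also read in the others. Summed T cell markers stood at 46.4 CPM in BiDT and 14.3 CPM in Ctrl macrophages, and NK markers at 32.7 CPM in BiDT and 8.29 CPM in Ctrl macrophages. In gamma delta T cells NK markers stood at 1146 CPM in BiDT and 595.5 CPM in Ctrl. The part of such markers in the ratios below was not tested. One gate, led by Sparc, Bgn and collagen genes, could hold fibroblasts or MC38 cells, and its CD45 transcript Ptprc stood at 59.6 CPM in BiDT and 34.4 CPM in Ctrl, whereas the other gates ranged from 320 to 1342 CPM in BiDT and from 327 to 1299 CPM in Ctrl. Levels are UMIs of the gene summed over the cells of a gate and scaled to a common total (CPM).

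In BiDT macrophages, 7 of the 8 genes stood at least 1.5 times above Ctrl macrophages and Mavs stood below. All 8 had at least 50 UMIs over both libraries, the minimum for a count, and of all 13778 genes that met it there 20.4% were at least 1.5-fold higher in BiDT and 12.0% at least 1.5-fold lower. The median log2 ratio of BiDT over Ctrl was 1.93 over the 8 genes and 0.09 over all genes. With TMM factors, which trim extreme genes, in place of total counts, every log2 ratio in this gate would be lower by 0.23.

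Among the helicases, Ifih1 stood at 191 CPM in BiDT macrophages (5416 UMIs; interval 186 to 196) and 46.3 CPM in Ctrl macrophages (4254 UMIs; 45.0 to 47.7), a log2 ratio of 2.05 (1.99 to 2.10). Dhx58 stood at 99.8 CPM in BiDT and 19.9 CPM in Ctrl, a log2 ratio of 2.33 (2.24 to 2.42). Ddx60 had the highest ratio of the 8 genes in this gate, with 143 CPM in BiDT (4057 UMIs) and 7.31 CPM in Ctrl (671 UMIs), a log2 ratio of 4.29 (4.17 to 4.41). The intervals of the libraries lay far apart for all 3 helicases. Mavs, the adaptor on which the MDA5 signal converges, had 8.33 CPM in BiDT macrophages (236 UMIs) and 12.3 CPM in Ctrl macrophages (1125 UMIs), a log2 ratio of -0.56 (-0.76 to -0.35). That is short of a 1.5-fold lower level. With TMM scaling the ratio was -0.79 and passed it, and after every cell was thinned to 500 UMIs it was -0.20.

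The effectors in macrophages were higher in BiDT too. Zbp1 stood at 393 CPM in BiDT and 87.6 CPM in Ctrl, a log2 ratio of 2.16 (2.12 to 2.21). Adar stood at 97.0 CPM in BiDT and 28.2 CPM in Ctrl (log2 ratio 1.78, 1.71 to 1.86), and Eif2ak2 at 96.8 CPM in BiDT and 33.7 CPM in Ctrl (1.52, 1.45 to 1.60). Tlr3 had 24.9 CPM in BiDT macrophages (704 UMIs) and 7.04 CPM in Ctrl macrophages (646 UMIs), a log2 ratio of 1.82 (1.67 to 1.98). The counts are from the 3' end and do not separate the interferon-inducible long form of ADAR1 from the short one.

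**Figure D1:**
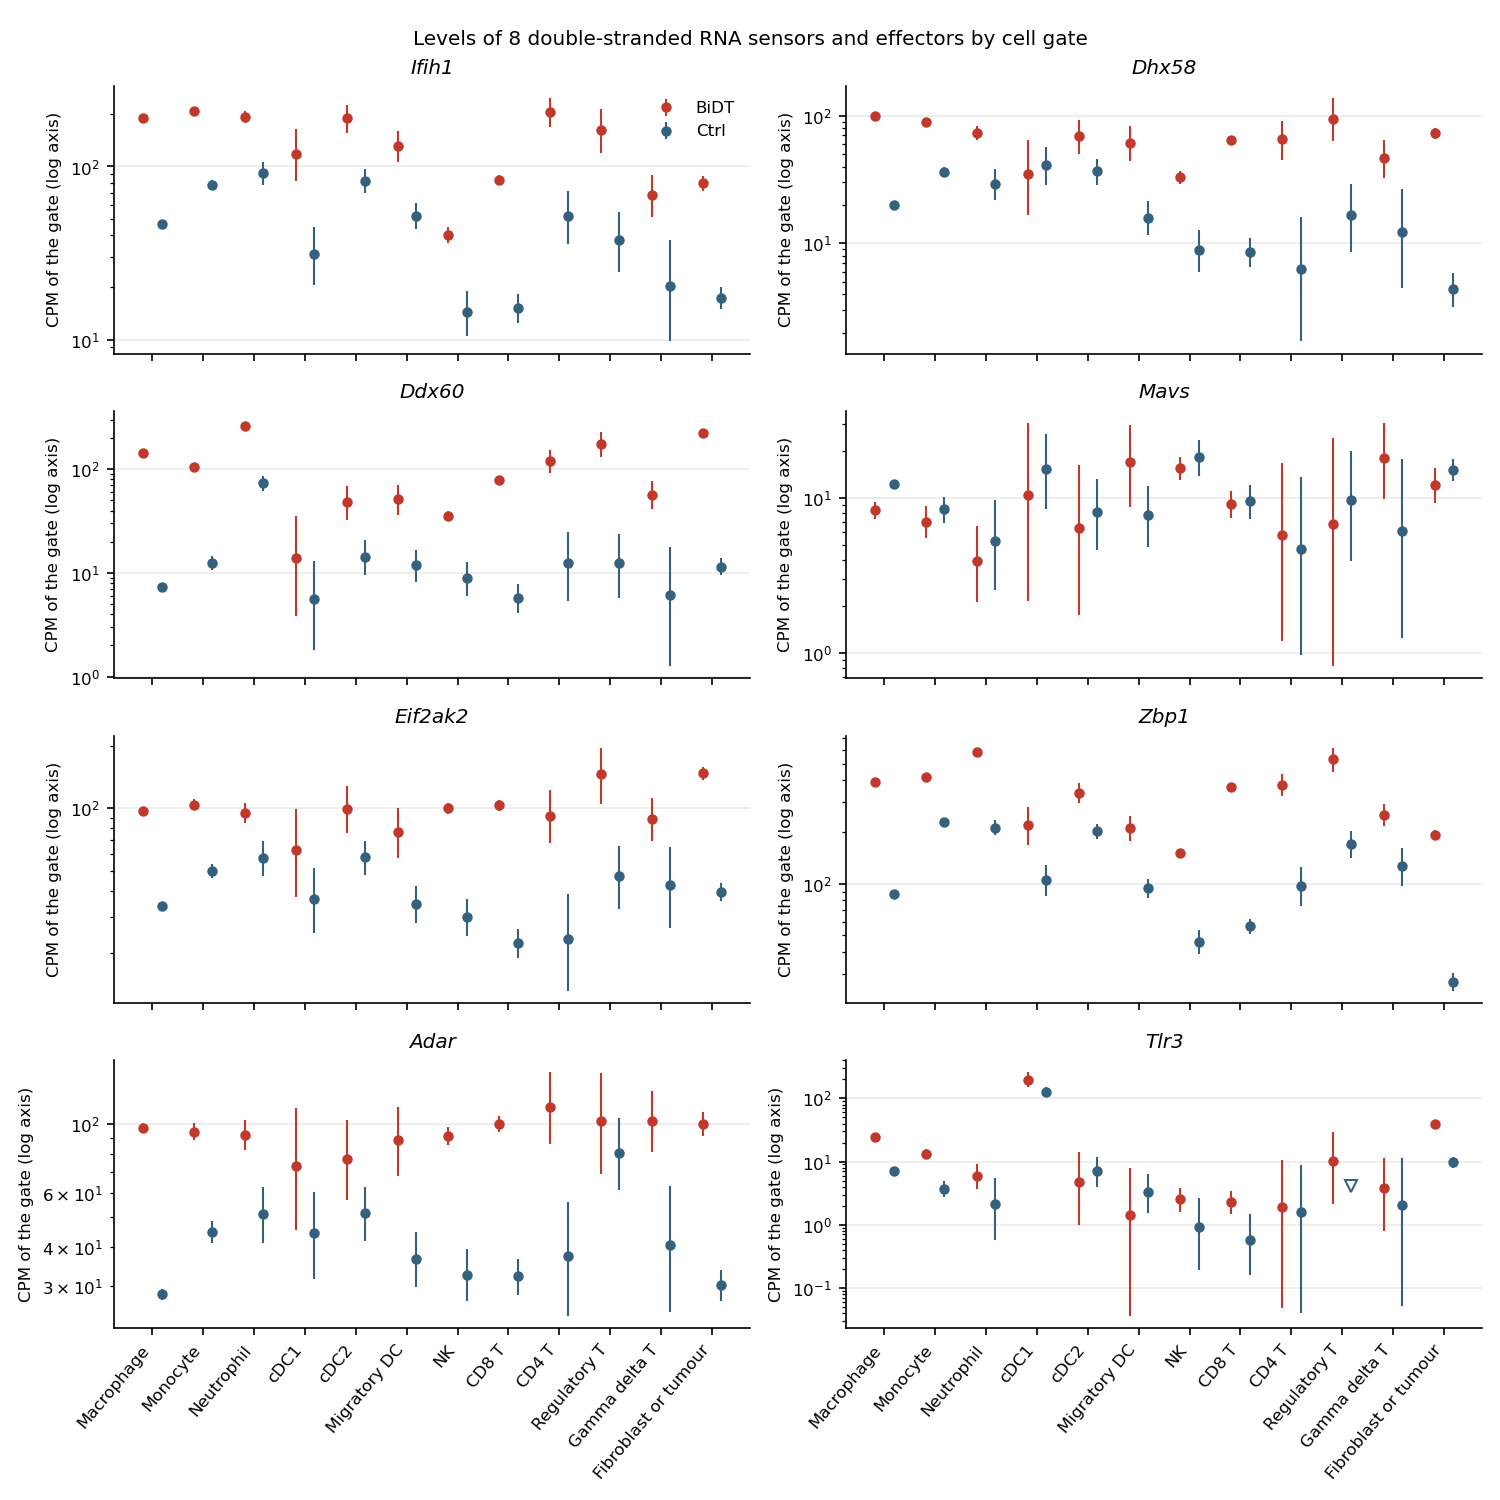
Level of each gene in CPM (log axis) in 12 cell gates, with BiDT (red) left of Ctrl (blue). Points are 1 library each, bars are exact Poisson 95% intervals of counting error, and the open triangle marks the level that 3 counts would give where 0 were seen (Tlr3, Ctrl regulatory T cells). Zbp1 stands at 393 CPM in BiDT and 87.6 CPM in Ctrl macrophages, Adar lies between 73.3 and 113 CPM in all BiDT gates, and Tlr3 is highest in cDC1.

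Macrophages of the 2 libraries differed in level within shared clusters and also in which clusters they belonged to. Since the clustering kept some interferon-induced genes, the parts of these differences in the gate ratios cannot be told apart. The largest share of BiDT macrophages lay in cluster c1 (34.0% of BiDT and 0.780% of Ctrl macrophages), and that of Ctrl macrophages in cluster c11 (2.09% of BiDT and 23.7% of Ctrl macrophages). Clustering left out the 8 genes and several families of interferon-induced genes but not all such genes. Clusters c0, c1, c5 and c13 held fewer than 100 Ctrl macrophages, and c7, c8, c10 and c26 fewer than 100 BiDT macrophages. These clusters, c1 and c13 among them, are therefore left out of the ratios within clusters. In the 9 clusters with at least 100 macrophages of each library, Ddx60 was at least 1.5-fold higher in BiDT in 9 of 9, with log2 ratios from 1.44 to 3.31. Ifih1 was so in 8 of 9 clusters (0.27 to 1.57), Dhx58 in 8 (0.56 to 2.21), Zbp1 in 8 (0.46 to 1.83), Adar in 8 (0.58 to 1.57) and Eif2ak2 in 7 (0.38 to 1.75). For Ifih1, Dhx58, Ddx60, Zbp1 and Adar the ratio of the whole gate was thus above that of each of these clusters, while Eif2ak2 and Tlr3 lay within their ranges. Tlr3 was at least 1.5-fold higher in 5 of the 9 clusters (log2 ratios from -0.74 to 2.48), and Mavs in 1 (-2.69 to 1.07). The interval of the Mavs ratio includes 0 in each of the 9 clusters. In the BiDT library the members also varied among macrophage clusters: Ddx60 ranged from 26.1 CPM in cluster c4 to 304 CPM in cluster c13 over 13 clusters. In the Ctrl library Ddx60 ranged from 4.39 CPM in c26 to 34.2 CPM in c23, and the highest Ctrl cluster thus lay above the lowest BiDT cluster.

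**Figure D2:**
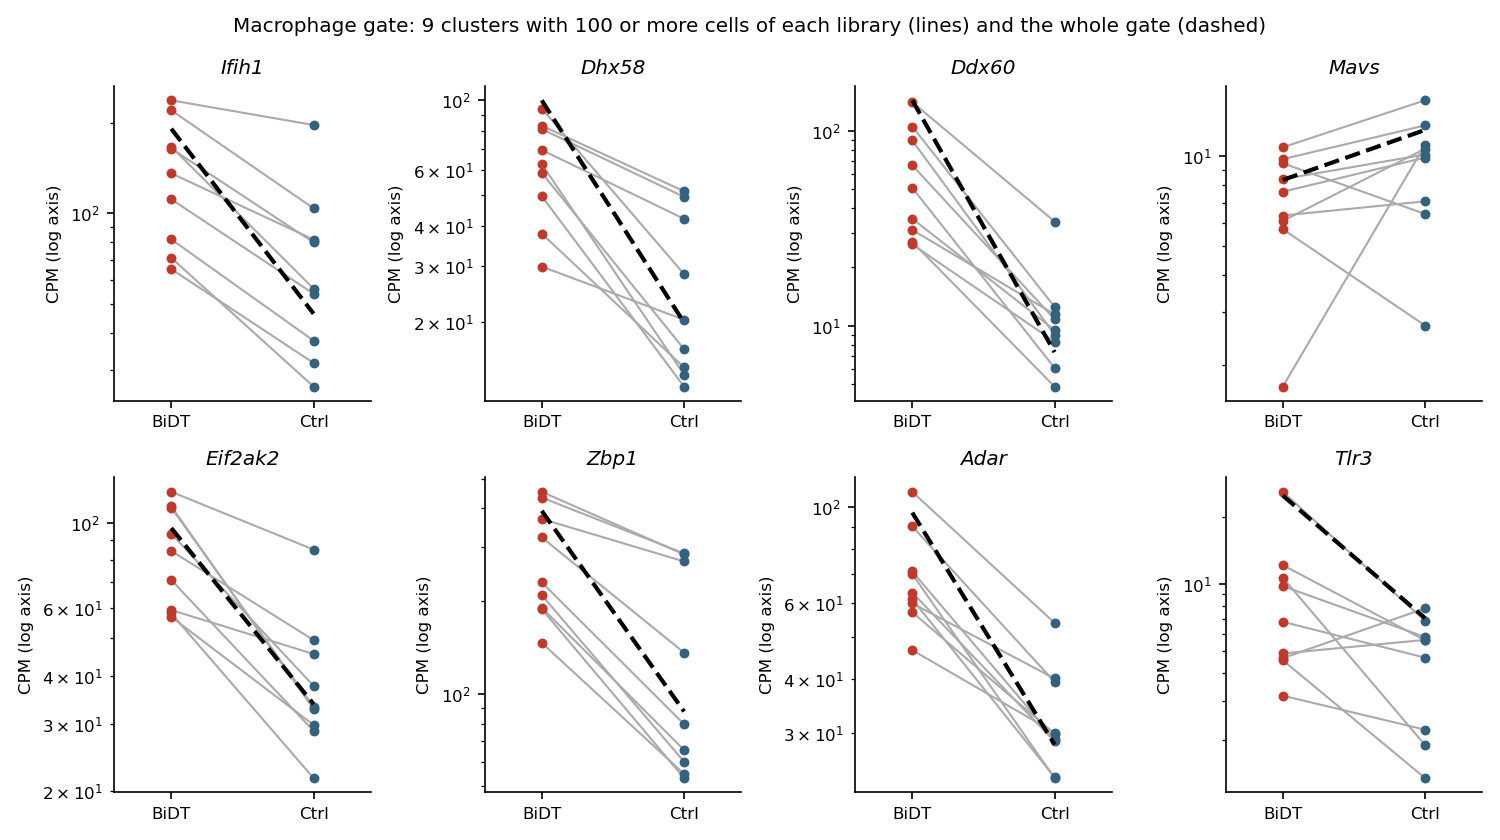
Level of each gene in CPM (log axis) in BiDT (left) and Ctrl (right) macrophages, with 1 grey line for each of the 9 clusters that held at least 100 macrophages of each library and a dashed line for the whole gate. The dashed line is steeper than every grey line for Ddx60, at a log2 ratio of 4.29 against 1.44 to 3.31, and slopes the other way for Mavs.

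Monocytes, gated as cells with monocyte and macrophage markers but no complement C1q transcripts, showed the same 7 genes higher in BiDT with smaller ratios than macrophages except for Tlr3. Of all 10689 genes counted there 12.0% were at least 1.5-fold higher and 3.76% at least 1.5-fold lower, and the median log2 ratio was 1.19 over the 8 genes and 0.05 over all genes. Ddx60 stood at 106 CPM in BiDT monocytes and 12.5 CPM in Ctrl monocytes, a log2 ratio of 3.08 (2.84 to 3.33). Ifih1 stood at 209 CPM in BiDT and 78.5 CPM in Ctrl (1.41, 1.31 to 1.52); its BiDT level was the highest of any gate, although its interval (200.3 to 218 CPM) overlaps those of CD4 T cells (168 to 248) and neutrophils (179 to 209). Zbp1 stood at 417 CPM in BiDT and 229 CPM in Ctrl, the highest Ctrl level of any gate although its interval (221 to 237) overlaps that of neutrophils (192 to 234), with a log2 ratio of 0.86 (0.80 to 0.93). Dhx58, Adar and Eif2ak2 had log2 ratios of 1.30, 1.07 and 1.06, and Mavs, at 7.03 CPM in BiDT and 8.44 CPM in Ctrl, had one of -0.26 whose interval (-0.71 to 0.18) includes 0. The leading clusters differed here as well, c13 with 17.7% of BiDT and 0.660% of Ctrl monocytes and c14 with 15.7% of BiDT and 27.9% of Ctrl monocytes. In the 5 clusters with at least 100 monocytes of each library, Ddx60 was at least 1.5-fold higher in 5 (0.68 to 3.36) and Zbp1 in 3 (0.31 to 1.75). Tlr3 was so in 1 of the 5 clusters (-1.33 to 4.17). With clusters in place of gates, the monocyte ratios were 1.77 for Ddx60 and 0.73 for Tlr3, which was 1.85 in the gate.

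Neutrophils had the highest Ddx60 level of all gates in both libraries, 263 CPM in BiDT (937 UMIs; 246 to 280) and 72.9 CPM in Ctrl (137 UMIs; 61.2 to 86.2). Their log2 ratio of 1.85 (1.59 to 2.12) was less than that of macrophages, with intervals that do not overlap. Zbp1 stood at 583 CPM in BiDT neutrophils and 212 CPM in Ctrl neutrophils (1.46, 1.30 to 1.62), and its BiDT interval (558 to 608) overlaps that of the next gate, regulatory T cells (449 to 619). Dhx58, Ifih1, Adar and Eif2ak2 followed with log2 ratios of 1.33, 1.08, 0.85 and 0.73. All 6 genes with 50 UMIs were at least 1.5-fold higher in BiDT neutrophils, against 10.9% of 7280 genes, while 11.5% were at least 1.5-fold lower. Mavs had 14 UMIs in BiDT and 10 in Ctrl neutrophils and Tlr3 had 21 in BiDT and 4 in Ctrl, and both intervals of the ratio include 0. The Adar ratio was 0.07 after every cell was thinned to 500 UMIs, which leaves few counts.

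CD8 T cells, the cells named in the title of the series, showed the highest estimates of the log2 ratio for Ifih1 and Eif2ak2 of any gate, with intervals that overlap those of other gates, among them regulatory T cells for Ifih1 (1.41 to 2.86) and CD4 T cells for Eif2ak2 (1.11 to 2.92). Of their 7 genes with 50 UMIs, 6 were at least 1.5-fold higher in BiDT and 0 lower, against 10.2% higher and 4.18% lower of 10621 genes. Ddx60, with 40 UMIs in Ctrl, reached that minimum through BiDT counts alone. The median log2 ratio was 2.47 over the 7 genes and 0.06 over all genes. Ifih1 stood at 83.7 CPM in BiDT CD8 T cells (877 UMIs) and 15.2 CPM in Ctrl CD8 T cells (105 UMIs), a log2 ratio of 2.47 (2.17 to 2.77). Dhx58 stood at 64.4 CPM in BiDT and 8.52 CPM in Ctrl (2.92, 2.53 to 3.33), and Ddx60 at 79.1 CPM in BiDT and 5.78 CPM in Ctrl (3.77, 3.32 to 4.27). Zbp1 had 365 CPM in BiDT (3820 UMIs) and 56.5 CPM in Ctrl (391 UMIs), a log2 ratio of 2.69 (2.54 to 2.85). Eif2ak2 stood at 103 CPM in BiDT and 22.4 CPM in Ctrl (2.21, 1.96 to 2.46) and Adar at 99.9 CPM in BiDT and 32.2 CPM in Ctrl (1.63, 1.42 to 1.85). Mavs, at 9.17 CPM in BiDT and 9.53 CPM in Ctrl, had a log2 ratio of -0.06 (-0.52 to 0.42). The same cluster, c19, held most of the gate in both libraries (55.4% of BiDT and 72.5% of Ctrl CD8 T cells). In the 2 clusters with at least 100 cells of each library, c19 and c20, log2 ratios were 4.14 and 4.15 for Ddx60, 2.54 and 2.94 for Ifih1 and 2.93 and 2.72 for Zbp1. Mavs differed between them, at 0.53 (-0.15 to 1.22) in c19 and -0.88 (-1.68 to -0.07) in c20. Summed markers of other cells in this gate were 541 CPM in BiDT and 694 CPM in Ctrl for macrophages, 522 CPM in BiDT and 406 CPM in Ctrl for NK cells and 60.9 CPM in BiDT and 31.8 CPM in Ctrl for neutrophils, and their part in the ratios was not tested.

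NK cells had the lowest levels of Ifih1, Dhx58 and Zbp1 of all BiDT gates, although the Dhx58 interval overlaps those of cDC1 and gamma delta T cells. Ifih1 stood at 40.2 CPM in BiDT NK cells (36.2 to 44.6) and 14.4 CPM in Ctrl NK cells (10.5 to 19.1), a log2 ratio of 1.49 (1.05 to 1.96). Ddx60 stood at 35.2 CPM in BiDT and 8.85 CPM in Ctrl (1.99, 1.44 to 2.59), Dhx58 at 32.9 CPM in BiDT and 8.85 CPM in Ctrl (1.89, 1.34 to 2.50) and Zbp1 at 152 CPM in BiDT and 45.8 CPM in Ctrl (1.73, 1.48 to 1.98). The interval of the Ddx60 ratio lies below that of CD8 T cells. With clusters in place of gates the ratio of Ddx60 was 2.83 and that of Dhx58 was 2.61. Cluster c18 held 45.4% of BiDT and 67.7% of Ctrl NK cells, and within it the log2 ratios were 2.32 for Ddx60 and 2.45 for Zbp1. Eif2ak2 in contrast stood at 100 CPM in BiDT NK cells, near its level of 103 CPM in BiDT CD8 T cells, against 29.9 CPM in Ctrl NK cells (1.74, 1.44 to 2.06), and Adar at 91.2 CPM in BiDT and 32.7 CPM in Ctrl (1.48, 1.19 to 1.79). Mavs stood at 15.6 CPM in BiDT and 18.3 CPM in Ctrl NK cells, a log2 ratio of -0.23 (-0.68 to 0.23). The count was 6 of 7 genes higher and 0 lower, against 13.1% higher and 6.02% lower of 10138 genes.

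The smaller T cell gates pointed the same way with wider intervals. The minimum of 50 UMIs is summed over both libraries, so a gene can reach it through BiDT counts alone. Ddx60, Ifih1 and Adar did so in CD4 T cells, and Ddx60 in regulatory T cells. In gamma delta T cells Ifih1, Eif2ak2 and Adar did so. The same held for Ifih1, Dhx58 and Ddx60 in NK cells and Ddx60 in CD8 T cells. It also held for Dhx58 in fibroblasts or tumour cells and Tlr3 in monocytes. The counts of genes higher in these gates are therefore partly set by the minimum, which also applies to the shares of all genes. In CD4 T cells 5 of 5 genes with 50 UMIs were higher, against 11.0% of 3980 genes (8.57% lower), and Ddx60 stood at 121 CPM in BiDT (63 UMIs) and 12.5 CPM in Ctrl (8 UMIs), a log2 ratio of 3.27 (2.21 to 4.55). Ifih1 stood at 205 CPM in BiDT CD4 T cells and 51.6 CPM in Ctrl CD4 T cells, and its BiDT interval of 168 to 248 CPM lay above that of BiDT CD8 T cells. Regulatory T cells had 4 of 5 genes higher, against 11.6% of 3719 genes (11.5% lower). Ddx60 there stood at 176 CPM in BiDT (52 UMIs) and 12.5 CPM in Ctrl (9 UMIs), a log2 ratio of 3.82 (2.79 to 5.03). The exception was Adar, at 102 CPM in BiDT (30 UMIs) and 80.4 CPM in Ctrl regulatory T cells (58 UMIs), with a log2 ratio of 0.34 (-0.35 to 1.00). Gamma delta T cells had 4 of 4 genes higher, against 13.2% of 4111 genes (10.8% lower), and Ifih1 stood at 68.5 CPM in BiDT (53 UMIs) and 20.3 CPM in Ctrl (10 UMIs), a log2 ratio of 1.75 (0.76 to 2.89). This last gate was led by cluster c18 in BiDT and c21 in Ctrl.

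**Figure D3:**
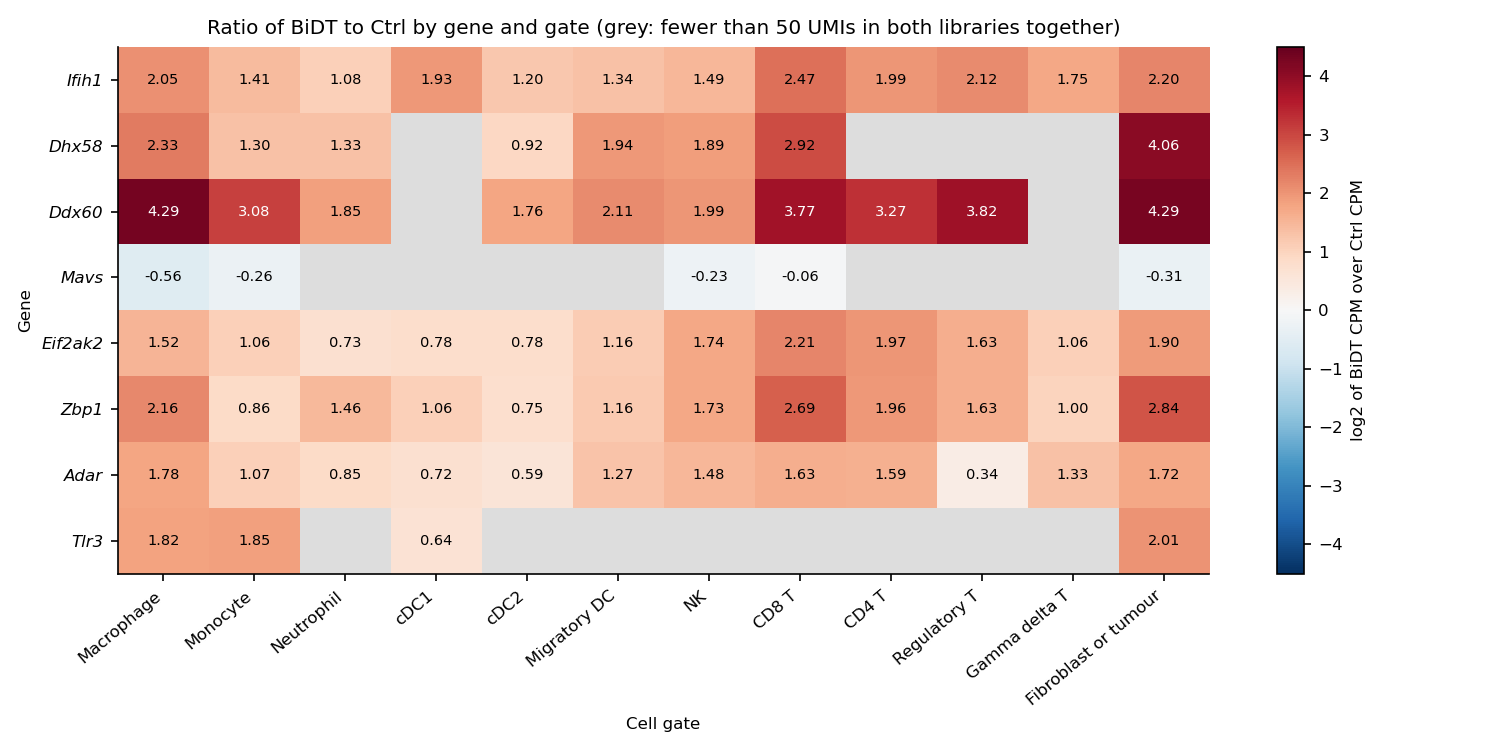
Log2 ratio of BiDT over Ctrl CPM for 8 genes (rows) in 12 cell gates (columns), printed in each field and shown in red where BiDT was higher and blue where it was lower. Grey fields had fewer than 50 UMIs over both libraries. Ddx60 is at 4.29 in macrophages and Mavs is at or below -0.06 wherever it had enough UMIs.

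The gates of conventional dendritic cells had the lowest median ratios over the genes with 50 UMIs, at log2 0.78 in cDC1 and 0.85 in cDC2. The genes in these medians differ between gates: Dhx58, Ddx60 and Mavs missed the minimum in cDC1, and Mavs and Tlr3 in cDC2. In cDC1, the cells that cross-present antigen to CD8 T cells, Tlr3 had its highest level in both libraries: 199 CPM in BiDT (57 UMIs; 151 to 258) and 127 CPM in Ctrl (115 UMIs; 105 to 153). Their log2 ratio was 0.64 (0.16 to 1.11), and it was 0.05 with stricter gates. A Tlr3 UMI was found in 44.4% of BiDT and 35.1% of Ctrl cDC1, at median depths of 3456 UMIs in BiDT and 5815 in Ctrl, and in 0.713% of BiDT and 0.170% of Ctrl CD8 T cells, at median depths of 2958 UMIs in BiDT and 3211 in Ctrl. Thinned to 500 UMIs per cell, the cDC1 shares were 9.52% (3.58 to 19.6%) in BiDT and 5.22% (2.13 to 10.5%) in Ctrl. Ifih1 stood at 119 CPM in BiDT cDC1 and 31.0 CPM in Ctrl cDC1 (34 UMIs in BiDT and 28 in Ctrl), a log2 ratio of 1.93 (1.17 to 2.71). Zbp1 stood at 220 CPM in BiDT and 105 CPM in Ctrl (1.06, 0.58 to 1.54). Dhx58 had 10 UMIs in BiDT and 37 in Ctrl cDC1, and its log2 ratio of -0.23 (-1.41 to 0.80) includes 0. All 5 genes with 50 UMIs were at least 1.5-fold higher in BiDT cDC1, against 10.8% of 3666 genes (16.0% lower), although the intervals for Eif2ak2 (-0.14 to 1.65) and Adar (-0.11 to 1.52) include 0. Among cells with Malat1 at 1% or less, 2 genes reached 50 UMIs and both passed, and the log2 ratio of Adar was 0.11.

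In cDC2, which present antigen mainly to CD4 T cells, 6 of 6 genes were higher, against 8.68% of 5988 genes (11.1% lower). Ddx60 stood at 48.2 CPM in BiDT (30 UMIs) and 14.2 CPM in Ctrl (28 UMIs), a log2 ratio of 1.76 (0.97 to 2.56). Ifih1 stood at 190 CPM in BiDT and 82.4 CPM in Ctrl (1.20, 0.85 to 1.55) and Zbp1 at 338 CPM in BiDT and 201 CPM in Ctrl (0.75, 0.50 to 0.99). Adar, at 77.2 CPM in BiDT and 51.4 CPM in Ctrl, had a log2 ratio of 0.59 (0.06 to 1.10), and of -0.17 after thinning to 500 UMIs. Migratory dendritic cells, marked by Ccr7 and Fscn1, had 6 of 6 genes higher, against 13.6% of 6518 genes (9.34% lower). Ddx60 stood at 51.2 CPM in BiDT and 11.9 CPM in Ctrl migratory cells (2.11, 1.38 to 2.84), Dhx58 at 61.2 CPM in BiDT and 15.9 CPM in Ctrl (1.94, 1.30 to 2.59) and Adar at 88.3 CPM in BiDT and 36.7 CPM in Ctrl (1.27, 0.78 to 1.74). Mavs had 12 UMIs in BiDT and 21 in Ctrl migratory cells, a log2 ratio of 1.13 (-0.02 to 2.22) that includes 0. For Tlr3, by contrast with cDC1, only 1 UMI in BiDT and 9 in Ctrl were found in the migratory gate.

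In the gate of fibroblasts or tumour cells, as in macrophages, 7 of the 8 genes stood higher in BiDT and Mavs did not. Ctrl levels of Ifih1, Dhx58 and Zbp1 were lower there than in Ctrl macrophages, and those of the other 5 genes were higher. Dhx58 stood at 72.8 CPM in BiDT (358 UMIs) and 4.36 CPM in Ctrl (44 UMIs), a log2 ratio of 4.06 (3.61 to 4.55) that was the highest of that gene in any gate. Ddx60 stood at 224 CPM in BiDT (1103 UMIs) and 11.5 CPM in Ctrl (116 UMIs), a log2 ratio of 4.29 (4.01 to 4.57). Zbp1, lowest here among Ctrl gates, stood at 192 CPM in BiDT and 26.9 CPM in Ctrl (2.84, 2.64 to 3.04). Eif2ak2 stood at 148 CPM in BiDT and 39.6 CPM in Ctrl (1.90), Ifih1 at 80.1 CPM in BiDT and 17.4 CPM in Ctrl (2.20), Adar at 99.8 CPM in BiDT and 30.2 CPM in Ctrl (1.72) and Tlr3 at 39.0 CPM in BiDT and 9.71 CPM in Ctrl (2.01, 1.65 to 2.37). Mavs, at 12.2 CPM in BiDT and 15.2 CPM in Ctrl, had a log2 ratio of -0.31 (-0.77 to 0.13). The count of 7 of 8 genes at least 1.5-fold higher stands beside 16.3% of 11216 genes (4.88% lower), and TMM scaling would lower each log2 ratio by 0.19.

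**Figure D4:**
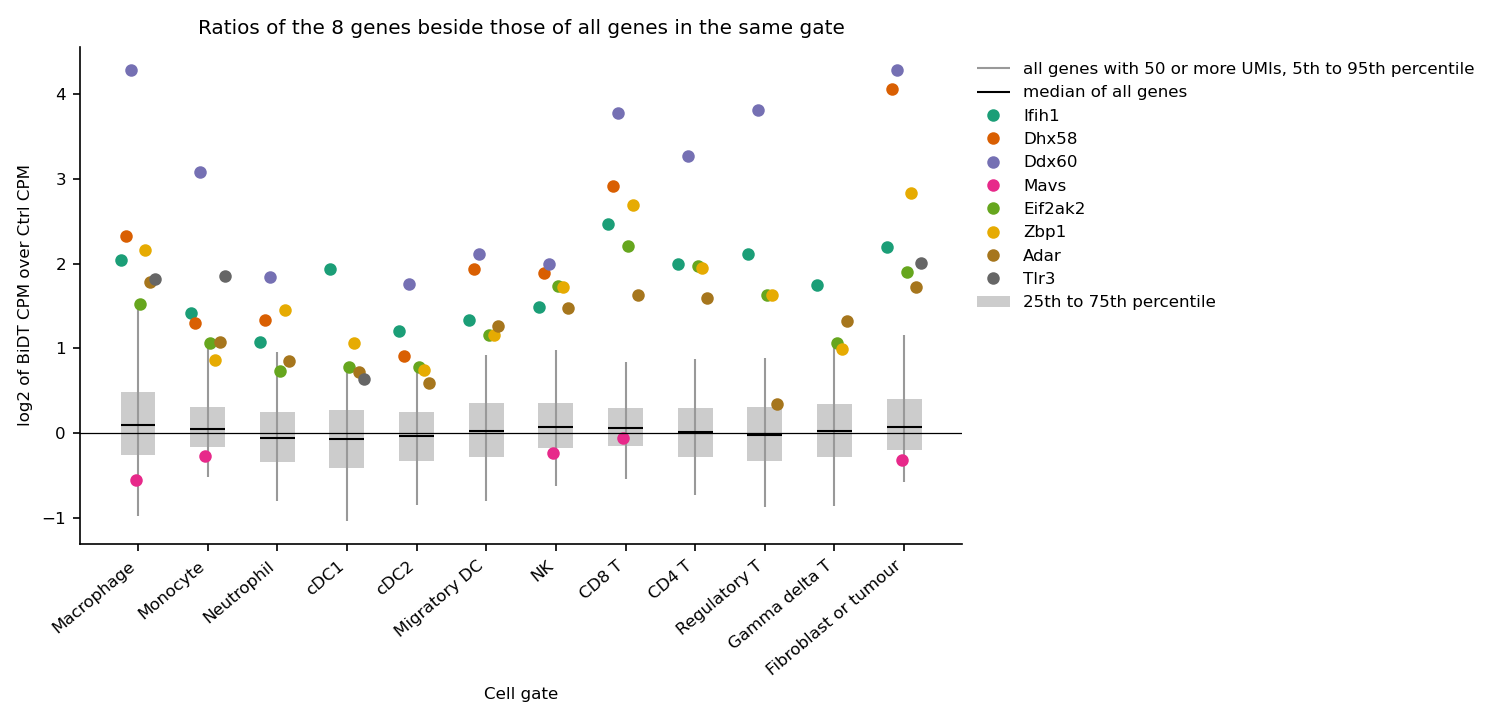
Log2 ratio of BiDT over Ctrl CPM for the genes with at least 50 UMIs (coloured points) in 12 cell gates, beside all genes with that minimum in the same gate (grey bar from the 25th to the 75th percentile, line from the 5th to the 95th, black mark at the median). In CD8 T cells the median of all genes is 0.06 and Ddx60 stands at 3.77, while the Mavs points lie at or below the median of all genes in each of the 5 gates where they are drawn.

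The 8 genes differed in how far their levels varied between gates. Adar was the most even in BiDT, where it lay between 73.3 CPM in cDC1 and 113 CPM in CD4 T cells, a 1.55-fold range. In Ctrl it lay between 28.2 CPM in macrophages and 80.4 CPM in regulatory T cells, a 2.86-fold range, and Eif2ak2 was the most even. In both libraries the intervals of all 11 pairs of neighbouring gates in the order of Adar overlapped. They did so too for Eif2ak2 (2.36-fold in BiDT, 2.59-fold in Ctrl) and Mavs (4.61-fold in BiDT, 3.90-fold in Ctrl). Ifih1 ranged over 5.20-fold in BiDT and 6.38-fold in Ctrl with NK cells at the low end of both. Zbp1 covered 3.85-fold in BiDT and 8.53-fold in Ctrl, and 7 of its 11 neighbouring pairs in BiDT and 9 in Ctrl overlapped. Dhx58 covered 3.03-fold in BiDT and 9.40-fold in Ctrl, and Ddx60 18.8-fold in BiDT and 13.2-fold in Ctrl, with neutrophils highest and cDC1 lowest in both. The low end rests on 4 UMIs in BiDT and 5 UMIs in Ctrl cDC1, and the next gates were NK cells at 35.2 CPM in BiDT and CD8 T cells at 5.78 CPM in Ctrl. Tlr3 was the most restricted, with 199 CPM in BiDT cDC1 and 39.0 CPM in the next BiDT gate, fibroblasts or tumour cells. Outside these gates and macrophages its level was below 10% of that in cDC1 in both libraries, a range in which free RNA cannot be told apart from expression. In Ctrl the macrophage level (5.52% of that in cDC1) and the level in fibroblasts or tumour cells (7.62%) also lay in that range, so the Tlr3 ratios of both gates rest on it. Ddx60 lay below 10% of its neutrophil level in cDC1 in both libraries. In Ctrl it did so in CD8 T cells (7.92%) and gamma delta T cells (8.36%) as well, so the Ddx60 ratios of these gates share that limit. The Ddx60 level of Ctrl macrophages, at 10.02% of that in neutrophils, lay just above this range.

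Over all filtered cells the log2 ratios were 3.57 for Ddx60, 1.92 for Dhx58, 1.69 for Zbp1, 1.63 for Ifih1, 1.54 for Adar, 1.53 for Eif2ak2, 1.29 for Tlr3 and -0.25 for Mavs. At least 1.5-fold higher were 7 of the 8 genes, against 24.5% of 16856 genes, and 6.69% of genes were at least 1.5-fold lower. TMM scaling would lower these ratios by 0.22. Because the gates took different shares of the libraries, the levels of gated cells were also weighted to the gate composition of Ctrl. Cells outside the gates are part of the ratios above but not of these levels. Before weighting, the log2 ratios of gated cells were 3.73 for Ddx60, 1.84 for Zbp1 and 1.255 for Tlr3. Those of Ddx60 and Zbp1 were thus higher than over all filtered cells, and that of Tlr3 was lower. Differences between the weighted ratios and those above therefore mix a change of cells with the weighting. With the weights, Ddx60 stood at 137 CPM in BiDT and 9.23 CPM in Ctrl, a log2 ratio of 3.89. Tlr3 stood at 23.0 CPM in BiDT and 7.01 CPM in Ctrl, a log2 ratio of 1.71. The other ratios with that composition were 2.20 for Dhx58, 1.91 for Ifih1, 1.91 for Zbp1, 1.61 for Adar and -0.42 for Mavs, and Eif2ak2 stood at 101.4 CPM in BiDT and 35.85 CPM in Ctrl.

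Counted by cell rather than by level, more BiDT than Ctrl cells held a UMI of any of the 8 genes in each of the 12 gates. After thinning to 500 UMIs per cell these were 37.6% of BiDT and 11.7% of Ctrl macrophages and 31.0% of BiDT and 7.02% of Ctrl CD8 T cells. They were 33.2% of BiDT and 6.06% of Ctrl fibroblasts or tumour cells, and 21.6% of BiDT and 7.71% of Ctrl NK cells. Without thinning the macrophage shares were 85.4% in BiDT and 64.6% in Ctrl. The intervals of the libraries overlapped only in cDC2, at 31.3% in BiDT and 23.2% in Ctrl. At least 2 of the genes were found in the same thinned cell in 8.84% of BiDT and 0.927% of Ctrl macrophages and in 4.60% of BiDT and 0.340% of Ctrl CD8 T cells. For single genes, Zbp1 was found in 16.1% of BiDT and 4.58% of Ctrl macrophages and in 16.4% of BiDT and 2.60% of Ctrl CD8 T cells. Ddx60 was found in 11.6% of BiDT and 0.398% of Ctrl fibroblasts or tumour cells.

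**Figure D5:**
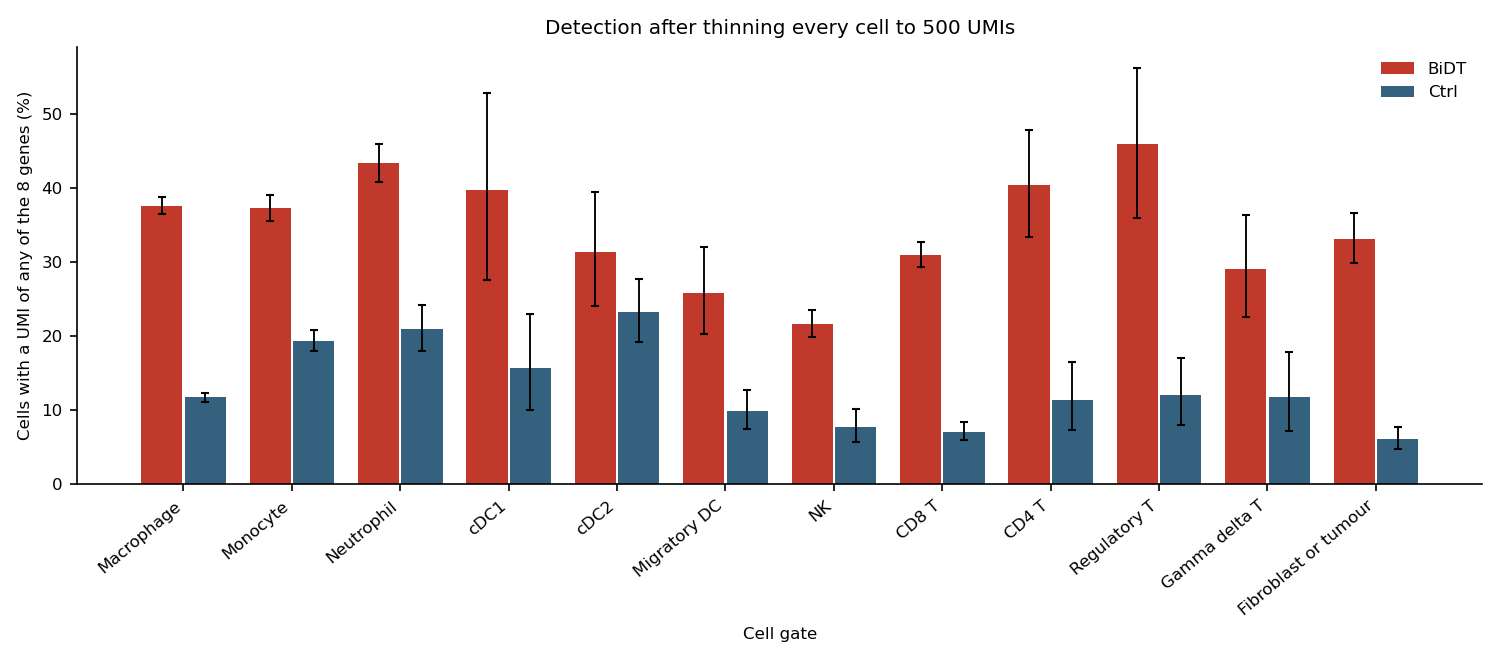
Share of cells (%) with at least 1 UMI of any of the 8 genes after each cell was thinned to 500 UMIs, in 12 cell gates, with BiDT (red) left of Ctrl (blue) and exact binomial 95% intervals. In CD8 T cells the bars stand at 31.0% in BiDT and 7.02% in Ctrl.

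Genes with a profile like that of each sensor were sought by Pearson correlation of log2(CPM + 1) over the 23 combinations of gate and library with at least 100 cells. These points share 2 libraries, so the values are descriptions. For Ddx60 the most similar genes were Xaf1 (r = 0.96), Ifit1 (0.95) and Rnf213 (0.94), for Dhx58 Irf7 (0.95), Ifi35 (0.94) and Daxx (0.93), and for Ifih1 Isg15 (0.94), Daxx (0.93) and Ifit2 (0.93). Zbp1 came closest to Oas3 (0.94), Irf7 (0.93) and Trim30a (0.93), Eif2ak2 to Rnf213 (0.94), Xaf1 (0.94) and Ogfr (0.93), and Adar to Parp9 (0.91), Ogfr (0.90) and Irf9 (0.90). Isg15, Ifit1, Ifit2, Oas3, Irf7 and Irf9 are classical interferon-stimulated genes. Mavs and Tlr3 had other neighbours with lower values, Fcf1 (0.78), Trmt6 (0.77) and Mrpl51 (0.76) for Mavs and Slc8b1 (0.79), Fam149a (0.76) and Rab7b (0.75) for Tlr3.

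Lists of genes around the sensors are read against all genes, of which 20.4% were at least 1.5-fold higher in BiDT macrophages, 10.2% in BiDT CD8 T cells and 13.1% in BiDT NK cells. The shares of the lists ranged from below these values, for RNA editing and binding in macrophages, to far above them, for OAS and RNase L. Of 28 genes of RIG-I-like receptor and MAVS signalling, 13 were at least 1.5-fold higher and 0 lower in BiDT macrophages (median log2 ratio 0.33), and 5 higher and 0 lower in CD8 T cells (0.15). Irf7, the factor that amplifies interferon production, stood at 876 CPM in BiDT and 72.6 CPM in Ctrl in macrophages and monocytes together (log2 ratio 3.59, 3.56 to 3.63), and at 354 CPM in BiDT and 24.0 CPM in Ctrl in CD8 T cells (3.89, 3.66 to 4.12). Irf3, the constitutive factor downstream of MAVS, stood at 20.9 CPM in BiDT and 25.4 CPM in Ctrl in macrophages and monocytes (-0.28, -0.40 to -0.17) and at 34.7 CPM in BiDT and 42.6 CPM in Ctrl in CD8 T cells (-0.30, -0.52 to -0.07). Its log2 ratio in dendritic cell gates together was -0.66 (-1.25 to -0.11). RIG-I, the remaining helicase of the MDA5 family, listed as Ddx58, stood at 127 CPM in BiDT and 27.4 CPM in Ctrl macrophages and monocytes (2.21, 2.14 to 2.27) and at 111 CPM in BiDT and 26.1 CPM in Ctrl in CD8 T cells (2.08, 1.86 to 2.32). In NK cells Ddx58 stood at 89.5 CPM in BiDT and 52.5 CPM in Ctrl, a log2 ratio of 0.77 (0.53 to 1.01) that lay below that of Ifih1 in the same cells, with intervals that do not overlap. Nlrc5, the activator of MHC class I genes, stood at 97.6 CPM in BiDT and 43.4 CPM in Ctrl in NK cells (1.17), and the lowest ratios of the list in these 2 sets of cells were those of Ppp1ca in macrophages and monocytes (-0.50) and of Tmem173, which encodes STING, in NK cells (-0.52).

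Of the 10 genes of the TLR3 arm, 5 were at least 1.5-fold higher and 1 lower in BiDT macrophages, and 2 higher with TMM scaling. In macrophages and monocytes Tlr9 stood at 13.8 CPM in BiDT and 4.29 CPM in Ctrl (log2 ratio 1.69) and Tlr7 at 43.9 CPM in BiDT and 18.1 CPM in Ctrl (1.28), both endosomal receptors of other nucleic acids, whereas the coreceptor Cd14 stood at 1241 CPM in BiDT and 2036 CPM in Ctrl (-0.71). In CD8 T cells Unc93b1, which carries endosomal receptors to their compartment, stood at 59.1 CPM in BiDT and 38.1 CPM in Ctrl (0.63, 0.42 to 0.85). The PKR arm had 3 of 14 genes higher (1 with TMM scaling) and 3 lower in macrophages, against 20.4% higher and 12.0% lower of all genes. In CD8 T cells 1 of 13 was higher and 0 lower, against 10.2% higher and 4.18% lower of all genes. Without TMM scaling, only the shares higher were near those of all genes. The share of all genes with TMM scaling is not given here, so the count with it has no matching share. Ddit3, which encodes the stress factor CHOP, stood at 89.0 CPM in BiDT and 27.8 CPM in Ctrl in macrophages and monocytes (1.68, 1.61 to 1.75) and at 47.8 CPM in BiDT and 24.5 CPM in Ctrl in CD8 T cells (0.96, 0.71 to 1.22). Asns, another target of the eIF2alpha pathway, stood at 3.99 CPM in BiDT and 7.44 CPM in Ctrl macrophages and monocytes (-0.90, -1.16 to -0.65), so that members of this arm went in both directions.

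Of the 10 genes of cell death downstream of ZBP1, 1 was at least 1.5-fold higher in macrophages, CD8 T cells and NK cells. These shares higher are no greater than those of all genes. In macrophages and in NK cells 1 of the 10 was lower, against 12.0% of all genes in macrophages and 6.02% in NK cells. The gene with the highest ratio in macrophages and monocytes, in CD8 T cells and in NK cells was Mlkl, the executor of necroptosis. It stood at 66.3 CPM in BiDT and 24.0 CPM in Ctrl macrophages and monocytes (log2 ratio 1.47, 1.39 to 1.55), at 34.6 CPM in BiDT and 11.4 CPM in Ctrl in CD8 T cells (1.60, 1.24 to 1.97) and at 46.3 CPM in BiDT and 17.1 CPM in Ctrl in NK cells (1.44, 1.03 to 1.87). Casp6 had the lowest ratio in these cells, with 30.0 CPM in BiDT and 50.4 CPM in Ctrl in macrophages and monocytes (-0.75, -0.84 to -0.66). Of 21 genes of RNA editing and double-stranded RNA binding, 2 were higher (1 with TMM scaling) and 1 lower in macrophages, and 1 of 18 higher and 0 lower in CD8 T cells, both below the shares of all genes. Samhd1 stood at 298 CPM in BiDT and 129 CPM in Ctrl CD8 T cells (1.22, 1.11 to 1.32). The mitochondrial exonuclease gene Pnpt1 stood at 38.8 CPM in BiDT and 21.2 CPM in Ctrl in macrophages and monocytes (0.88, 0.78 to 0.97). The OAS and RNase L list, a parallel sensor of double-stranded RNA, had the highest share of genes higher, with 8 of 9 genes higher and 1 lower in macrophages (median log2 ratio 2.74) and 7 of 9 higher in CD8 T cells (2.88). Oas3 stood at 279 CPM in BiDT and 26.5 CPM in Ctrl in macrophages and monocytes (3.40) and at 219 CPM in BiDT and 9.96 CPM in Ctrl in CD8 T cells (4.46), and Oasl1 at 352 CPM in BiDT and 31.1 CPM in Ctrl in macrophages and monocytes (3.50). Abce1, an inhibitor of RNase L, had the lowest ratio of the list in macrophages and monocytes, at 29.8 CPM in BiDT and 56.2 CPM in Ctrl (-0.92, -1.01 to -0.82).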

How the data were processed

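Live CD45-positive cells of 1 BiDT and 1 Ctrl library were profiled with a 10x Genomics 3' workflow, per the labels' protocols. The deposited values are the authors' raw UMI counts per gene and barcode, without normalization. Cell Ranger 7.1.0 and build GRCm39 were used, per the submitters' processing notes; the barcodes, in segments joined by low lines, do not have the form that Cell Ranger writes, so the counting step is uncertain, and no annotation release was named. The 8 genes and all lists were chosen with earlier results of these data known.

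Kept were cells with 300 or more genes, 500 or more UMIs and a mitochondrial share of up to 10%; 572 BiDT and 1702 Ctrl cells were above the mitochondrial limit. Scrublet (scanpy 1.11.5, expected rate 0.05) marked 0 doublets at its own thresholds (0.574 in BiDT, 0.572 in Ctrl) and had not worked, and 2808 BiDT and 2058 Ctrl cells scoring 0.15 or more were removed instead, a value chosen after the scores were seen. Gates required 2 or 3 markers of a class, cells meeting gates of more than 1 lineage (1712 BiDT, 1403 Ctrl) were left out, and plasmacytoid dendritic cells (12 BiDT, 36 Ctrl) were too few to compare. Counts were summed per gate and library, divided by the gate total (CPM), and set against each other as a log2 ratio, BiDT over Ctrl, with exact conditional binomial 95% intervals; levels have exact Poisson and shares exact (Clopper-Pearson) intervals. The 3 counts that a count of 0 allows give the floor of each level. The intervals were checked on counts simulated from the macrophage, CD8 T and cDC1 gates with known ratios. Named list genes are the 2 with the highest and the 1 with the lowest ratio per list in macrophages and monocytes, CD8 T cells, NK cells and dendritic cells, with Ddx58, Irf3 and Irf7 always, of which a selection is given. Joint clusters used 3000 variable genes, 30 components, 15 neighbours and Leiden resolution 2. Software versions were pandas 2.3.3, numpy 2.4.6, igraph 0.11.9, scikit-learn 1.9.0, matplotlib 3.10.9, scipy 1.17.1 and Python 3.11.15. Of 14 alternatives, 4 were added after the data were seen. They changed the scaling, depth, cell filters, doublets, gates and minimum count, and left out cells of shared barcodes, cells of high Malat1 or the marker Ly6c2.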

Additional observations from a re-analysis of the deposited data

How the results depend on the processing

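No paired analysis was possible because each group is 1 library. Over 14 alternatives, 822 of 845 alternative values of the ratios at least 1.5-fold higher in BiDT stayed past that fold. Thinning every cell to 500 UMIs left fewer genes with 50 UMIs, and the genes at least 1.5-fold higher then numbered 0 in cDC1, migratory dendritic, CD4 T, regulatory T and gamma delta T cells, 1 in cDC2 and 3 in fibroblasts or tumour cells, in each case all that reached the minimum. In cDC1 the number was 1 of the 2 genes that reached the minimum with stricter gates and 2 of 2 among cells with Malat1 at 1% or less, an alternative added after the data were seen. Without a minimum it was 8 in gamma delta T cells. The log2 ratio of Adar in cDC2 was -0.17 after thinning, the only change of sign among ratios at least 1.5-fold from 1 whose interval excludes 0. Clusters in place of gates gave 0.58 for Zbp1 in monocytes, just short of 1.5-fold. Shifts of over 1.5-fold not given above include, with stricter gates, log2 ratios of 2.80 for Ifih1 in cDC1, 2.91 for Ddx60 in cDC2, 2.55 for Dhx58 in migratory dendritic cells, 2.52 for Dhx58 in NK cells and 2.63 for Ddx60 in CD4 T cells. Cells with Malat1 at 1% or less gave 1.24 for Ddx60 in migratory dendritic cells and 2.41 for Ifih1 in gamma delta T cells. Thinning gave, for Dhx58, 1.96 in CD8 T cells, 3.14 in NK cells and 3.07 in fibroblasts or tumour cells, and 1.43 for Ifih1 in the last. Over the alternatives, counts of list genes higher in macrophages ranged from 11 to 13 for RIG-I-like receptor and MAVS signalling, 2 to 5 for the TLR3 arm, 1 to 4 for the PKR arm, 1 to 2 for the ZBP1 arm, 0 to 3 for RNA editing and double-stranded RNA binding and 7 to 8 for OAS and RNase L. In CD8 T cells these ranges were 4 to 6, 1 to 2, 1 to 1, 1 to 1, 1 to 4 and 6 to 7. Genes with few UMIs (Mavs and Tlr3 in most gates, all in cDC1) are limited by depth, and the cause of other shifts was not tested.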
